A study of Mus musculus with 12 samples.

Results

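Embelin was compared with its solvent, DMSO, in C2C12 cells kept in growth medium, on 4 of the 12 bead arrays of the series. These were all the arrays whose labels name growth medium: DMSO replicates 1 and 2, and embelin replicates 1 and 2. Embelin was given at 10 µM in medium with 20% fetal bovine serum, and the DMSO cells had the same medium. The labels disagree on exposure in growth medium, with 0 h in the source name and 24 h in the description, so its length is not settled here. The other 8 arrays, DMSO or 10 µM embelin for 24 h or 48 h in differentiation medium with 2% horse serum, enter only for the spread between arrays and as reference profiles. C2C12 is a single immortalised mouse line, and nothing in the labels ties the replicates to different cultures. The p-values therefore cover only the spread between these arrays, which may be technical.

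C2C12 myoblasts divide in medium rich in serum and, when serum is lowered, leave the cell cycle, express the transcription factor myogenin and then the contractile proteins, and fuse into myotubes. MyoD, the factor that opens this programme, is already present in the dividing cells and works with acetyltransferases such as p300 and PCAF, the product of Kat2b. Embelin is a plant benzoquinone known as an inhibitor of the caspase inhibitor XIAP and as an inhibitor of PCAF. The comparison in growth medium asks what the compound changed in dividing myoblasts, before differentiation was induced.

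Levels are given as normalized log2 signals, of which 11452 genes could be tested. The 4 arrays detected between 15031 and 15570 probes each. The myoblast markers Myod1, Des, Ncam1, Vcam1, Cdh15, Itga7 and Mcam were measured, and Pax7, Myf5 and Cd34 were not among the genes tested. Of 10 markers each, 1 macrophage, 1 endothelial, 2 osteoblast, 3 adipocyte and 3 keratinocyte markers were measured, and none of them was called in embelin replicate 1 or in embelin replicate 2. RNA came from whole cultures, so fewer cells of a type and less RNA per cell cannot be told apart. Embelin replicate 2 stood apart from the other 3 growth-medium arrays. On the leading principal component of all 12 arrays, which held 70.9% of the variance, the DMSO arrays lay at -70.5 and -70.7 and embelin replicate 1 at -70.2, whereas embelin replicate 2 lay at -48.7, toward the differentiated arrays between 18.6 and 42.9. The root mean square SD within the group was 0.135 for DMSO and 0.235 for embelin in growth medium, against 0.146 to 0.176 in the other 4 groups. The embelin arrays are therefore read separately as well as together.

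With both embelin arrays, no gene was called in growth medium. limma with Benjamini-Hochberg adjustment called 0 of 11452 genes (0.0%) at an adjusted p under 0.05, and 674 genes (5.89%) had an unadjusted p under 0.05, of which 393 were higher and 281 lower. The genes of the smallest p were the actin- and myosin-binding protein gene Svil and the mitochondrial protein gene Dnajc11, which were singled out after their values were seen. Svil measured 5.38 and 5.38 on the DMSO arrays and 6.02 and 6.26 on the embelin arrays, a difference of 0.76 ± 0.10 (SE, n = 2 against 2, adjusted p = 0.152 by limma). A second Svil probe, dimmer, differed from DMSO by -0.09 and 0.01, so the probes of this gene disagreed. Dnajc11 measured 5.61 and 5.60 on the DMSO arrays and 4.91 and 4.73 on the embelin arrays, with an adjusted p of 0.152 by limma, and its probe was not detected on either embelin array. The embelin arrays lay on the same side of the DMSO pair for both genes, and neither difference passed the test over both embelin arrays. In replicate 1 and replicate 2 the differences from DMSO were 0.64 and 0.88 for Svil and -0.70 and -0.88 for Dnajc11. Both embelin arrays lay above both DMSO arrays for 1715 genes (15%) and below both for 1960 (17.1%). Taken singly, replicate 1 lay above both DMSO arrays for 36.4% of genes and below both for 34.6%, and replicate 2 for 34.7% and 39.8%. Because both embelin arrays were set against the same DMSO pair, these shares do not show agreement between them. The 95% interval of the difference lay within ±1 log2 unit for 97.7% of genes and within ±0.5 for 72.2%.

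Taken over all genes, the deviations of the embelin arrays from DMSO were nearly uncorrelated, although single genes such as Svil and Dnajc11 deviated the same way on both. Over 11452 genes, with each embelin array set against a different DMSO array, the differences correlated at 0.038 in the pairing by replicate number and at -0.049 in the other pairing. These are descriptions across genes, which share arrays and background and are not independent.

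Embelin replicate 1 lay near the DMSO arrays, slightly further off than these were from each other. Its differences from single DMSO arrays had SDs over genes of 0.219 and 0.207, against 0.190 between the DMSO arrays, and 98.2% of genes lay within 0.5 log2 units of the DMSO mean. No gene was 1 unit or more higher, and 3 were 1 unit or more lower. Tested alone against the DMSO pair, on the assumption that a lone array varies like the other groups, embelin replicate 1 gave 0 higher genes (0.0%) and 2 lower genes (0.0175%). The first was the mitochondrially encoded complex I subunit MT-ND5, with 8.77 and 8.75 on the DMSO arrays, 6.99 on embelin replicate 1 and 8.82 on embelin replicate 2 (difference of replicate 1 -1.77 ± 0.20 SE, adjusted p = 0.0411 by limma). The other was the serine protease gene Prss23, with 6.47 and 6.35 on the DMSO arrays, 5.13 on embelin replicate 1 and 6.51 on embelin replicate 2 (adjusted p = 0.0411). Embelin replicate 2 lay above the DMSO mean for both genes, and a second Prss23 probe was 0.17 higher in replicate 1. Neither call was kept when either DMSO array was left out, where 0 genes were called lower.

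Embelin replicate 2 alone differed from the DMSO pair in 311 higher genes (2.72%) and 27 lower genes (0.236%), and 166 genes were at least 1 log2 unit higher against 1 that was as much lower. The lower calls depended on the DMSO pair, with 7 without DMSO replicate 1 and 13 without DMSO replicate 2. Cdkn1c separated the embelin arrays most. This gene, which encodes the cyclin-dependent kinase inhibitor p57 of differentiating muscle, measured 5.74 and 5.97 on the DMSO arrays, 5.90 on embelin replicate 1 and 10.06 on embelin replicate 2. Its difference in replicate 2 was 4.20 ± 0.36 (SE, adjusted p = 0.000144 by limma), in replicate 1 it was 0.05, and over both arrays it was 2.13 ± 0.95 (SE, adjusted p = 0.845). Only embelin replicate 2 left the level of the other growth-medium arrays, and it remained below the DMSO arrays at 24 h, at 13.22 and 13.21.

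**Figure D1:**
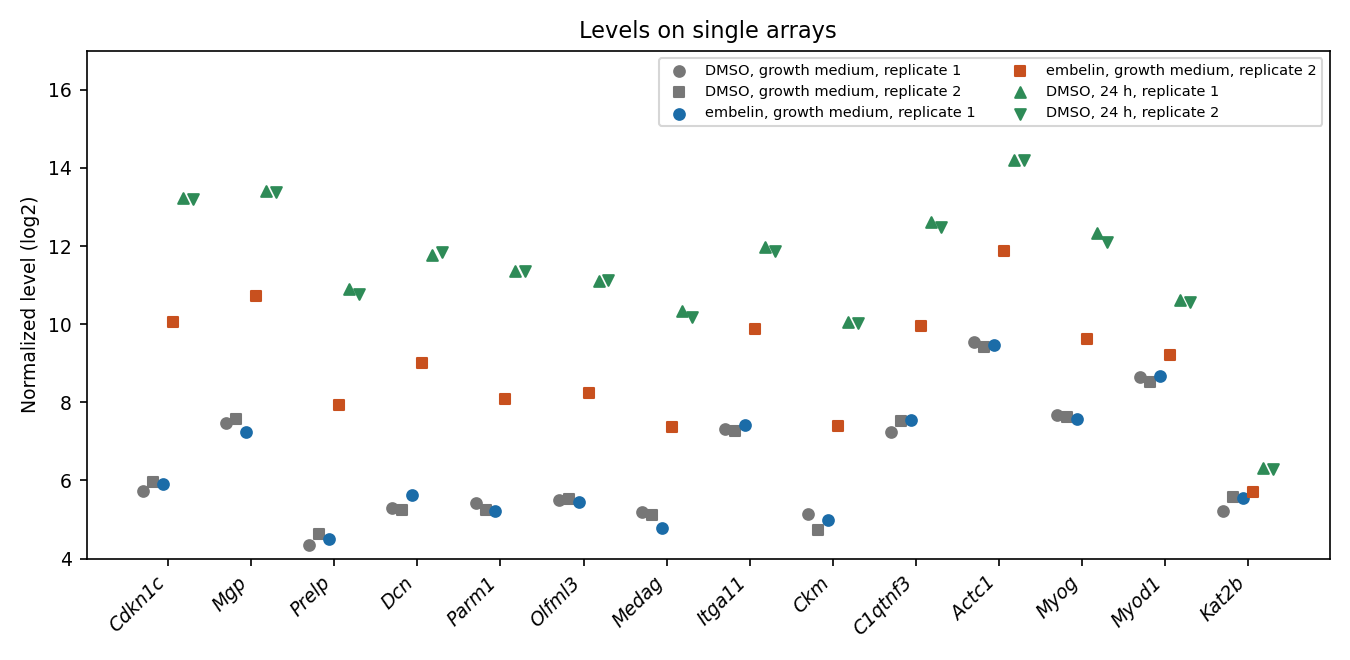
Normalized log2 level (y axis) of 14 genes (x axis) on the DMSO and embelin arrays in growth medium and on the DMSO arrays at 24 h, with a point for each array. For Cdkn1c, embelin replicate 2 lies at 10.06, between the other growth-medium arrays at 5.74 to 5.97 and the 24 h arrays at 13.22 and 13.21, whereas Kat2b spans 5.22 to 5.71 in growth medium.

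Several matrix genes were near or below background in the other growth-medium arrays. Dcn, which encodes the collagen-binding proteoglycan decorin, measured 5.29 and 5.24 on the DMSO arrays, where its probe was not detected, 5.63 on embelin replicate 1 and 9.02 on embelin replicate 2. It was thus at least 12.2-fold higher in replicate 2, taking for DMSO the higher of each array's lowest detected signal and the probe's own value (adjusted p = 1.86e-05 by limma). Of the other Dcn probes, 1 was 2.45 log2 units higher in replicate 2 and the other, at 4.26 to 4.43 on the growth-medium arrays, 0.11 higher. Prelp, a related leucine-rich proteoglycan, measured 4.34 and 4.64, then 4.50, and 7.94 in replicate 2, at least 5.79-fold higher. Mgp, matrix Gla protein, a calcification inhibitor, was detected on all 4 arrays and measured 7.46 and 7.58 with DMSO, 7.24 in embelin replicate 1 and 10.73 in embelin replicate 2. In each of these genes embelin replicate 1 lay within 0.4 log2 units of the DMSO mean.

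The remaining genes of the 10 that were furthest above embelin replicate 1 in embelin replicate 2 were Parm1, a mucin-like membrane protein, Olfml3, a secreted olfactomedin-domain protein, Medag, Itga11, a collagen-binding integrin chain, C1qtnf3, a secreted C1q-related protein, and Ckm, muscle creatine kinase. Parm1 measured 5.44 and 5.25 with DMSO, 5.21 in replicate 1 and 8.08 in replicate 2, at least 6.35-fold higher. Itga11 measured 7.31 and 7.26, then 7.43, and 9.87 in replicate 2, a difference of 2.58 ± 0.12 (SE, adjusted p = 8.49e-06 by limma). Other Itga11 probes differed by 1.97 and, on a dim probe, 0.26. The difference of replicate 2 from DMSO was 2.73 for Olfml3 and 2.58 for C1qtnf3, and that of replicate 1 was -0.07 and 0.19. Medag, not detected with DMSO, was at least 3.86-fold higher in replicate 2. These 10 were picked by the gap between the embelin arrays, so that gap was built into the choice and is no separate result. None of the 10 was called over both arrays, where no gene at all was called.

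Of 10 myotube markers, all 10 were measured and all 10 were called higher in embelin replicate 2, with a median difference of 1.98 log2 units in replicate 2 and 0.12 in replicate 1, beside medians of -0.01 and 0.00 over all genes tested, of which 2.72% were called higher in replicate 2. Probes not detected with DMSO enter such medians at their measured signals. Over both embelin arrays 0 genes were called in any of the lists, as in the whole table (0.0%). Their summed linear signal was 7134 and 6815 on the DMSO arrays, 7295 on embelin replicate 1 and 18865 on embelin replicate 2. Ckm measured 5.14 and 4.73 with DMSO, where it was not detected, 4.98 in replicate 1 and 7.41 in replicate 2, at least 3.99-fold higher. Of 7 measured myoblast markers, Cdh15, the cadherin of muscle precursors, was called higher in replicate 2 (9.12 and 9.13 with DMSO, 9.17 in replicate 1 and 9.94 in replicate 2), and the median of the list was 0.42. Of 4 measured fibroblast markers, Dcn, Col3a1 and Pdgfra were called higher in replicate 2 and Pi16 differed by 0.03. Dcn, Col3a1 and Pdgfra were also higher on the DMSO arrays at 24 h, Col3a1 at 10.75 and 10.92 against 7.79 and 8.08 in growth medium. The part of fibroblasts in the result was not tested.

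The sarcomere list, the contractile and anchoring proteins of muscle, had 21 of 30 measured genes called higher in replicate 2, beside 2.72% of all genes. The median difference was 1.17 in replicate 2, 0.06 in replicate 1 and 0.62 over both. Actc1, cardiac alpha-actin and an early actin of forming muscle, measured 9.54 and 9.40 with DMSO, 9.48 in replicate 1 and 11.87 in replicate 2. Myh3, embryonic myosin heavy chain, measured 9.62 and 9.60, then 9.83, and 11.68 in replicate 2. Actn2, a Z-disc alpha-actinin, measured 5.12 and 5.13, then 5.37, and 7.36 in replicate 2, at least 3.86-fold higher. Tnnc2, a fast troponin C, and Ttn, titin, differed by 1.94 and 1.58 in replicate 2 and by 0.13 and 0.32 in replicate 1. Myh8, perinatal myosin heavy chain, not detected with DMSO, was at least 2.41-fold higher in replicate 2. The probes of these last genes disagreed: other Myh8 probes differed by 0.59 and 0.06 in replicate 2, and other Ttn probes by -0.02 to 1.49.

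The genes of excitation, the neuromuscular junction and muscle metabolism had 13 of 29 called higher in replicate 2, beside 2.72% of all genes. The medians were 0.52 in replicate 2, -0.00 in replicate 1 and 0.27 over both. Casq2, a calcium-storing calsequestrin, measured 5.62 and 5.71 with DMSO, 6.08 in replicate 1 and 7.74 in replicate 2. Atp2a1, the calcium pump of fast muscle, measured 8.43 and 8.43, then 8.58, and 10.36 in replicate 2. Cox8b, a muscle form of a cytochrome oxidase subunit, Hrc, a calcium-binding protein of the sarcoplasmic reticulum, and Pgam2, muscle phosphoglycerate mutase, differed by 2.15, 1.64 and 1.49 in replicate 2. Among 13 fusion genes, Mymk, which encodes the fusion protein myomaker, Cdh15 and Jam2 were called higher in replicate 2. Mymk measured 6.43 and 6.32 with DMSO, 5.98 in replicate 1, the lowest of the 4, and 7.92 in replicate 2.

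Of 12 measured genes in the list of myogenic regulators, which also holds the cadherin gene Cdh15, 4 were not detected on any growth-medium array. The median difference of the list was 0.19 in replicate 2 and 0.04 in replicate 1, beside -0.01 and 0.00 over all genes tested. Myog, myogenin, measured 7.69 and 7.63 with DMSO, 7.57 in replicate 1 and 9.63 in replicate 2, a difference of 1.97 ± 0.17 (SE, adjusted p = 0.000144 by limma). A second, dimmer Myog probe differed by -0.83 in replicate 1 and 0.83 in replicate 2. Myod1 measured 8.66 and 8.52 with DMSO, 8.69 in replicate 1 and 9.21 in replicate 2, and missed the threshold in replicate 2 alone (adjusted p = 0.0669) and over both arrays (0.36 ± 0.17 SE, adjusted p = 0.861). Mef2c, a partner factor of MyoD, measured 6.27 and 6.40, then 6.20, and 6.96 in replicate 2 (adjusted p = 0.0778 alone and 0.978 over both arrays). Dimmer Mef2c probes differed by 0.07 to 1.25 in replicate 2. In all 3 factors embelin replicate 2 was the highest of the growth-medium arrays.

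Promoter sequences are shown for Myog and for the 3 muscle genes with the largest positive differences in replicate 2 among the sarcomere and excitation lists, because MyoD and myogenin bind E-boxes, the motif CANNTG. Each sequence runs 5′ to 3′ over 300 bases, 250 before and 50 after the annotated start, from RefSeq on GRCm38.p6, with every CANNTG in capitals. The windows are chr1:134289754-134290053 on the plus strand for Myog, chr7:19410844-19411143 on the plus strand for Ckm, chr2:114052826-114053125 on the minus strand for Actc1 and chr13:12340683-12340982 on the minus strand for Actn2.
Myog promoter: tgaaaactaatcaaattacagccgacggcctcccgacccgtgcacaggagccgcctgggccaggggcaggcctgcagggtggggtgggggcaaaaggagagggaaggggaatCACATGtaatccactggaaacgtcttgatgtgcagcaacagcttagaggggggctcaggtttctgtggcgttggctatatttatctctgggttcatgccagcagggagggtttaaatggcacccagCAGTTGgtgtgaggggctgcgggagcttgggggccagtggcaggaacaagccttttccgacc
Ckm promoter: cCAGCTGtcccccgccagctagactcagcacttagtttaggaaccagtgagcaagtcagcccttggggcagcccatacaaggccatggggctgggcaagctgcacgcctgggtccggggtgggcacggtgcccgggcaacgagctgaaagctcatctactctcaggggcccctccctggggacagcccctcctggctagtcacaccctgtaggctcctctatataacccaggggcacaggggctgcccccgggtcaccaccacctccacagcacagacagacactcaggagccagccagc
Actc1 promoter: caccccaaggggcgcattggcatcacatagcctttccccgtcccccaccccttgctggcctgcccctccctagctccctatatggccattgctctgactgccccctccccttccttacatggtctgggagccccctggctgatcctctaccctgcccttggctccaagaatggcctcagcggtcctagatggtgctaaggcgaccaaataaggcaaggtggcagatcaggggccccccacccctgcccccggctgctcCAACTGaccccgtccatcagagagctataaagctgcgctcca
Actn2 promoter: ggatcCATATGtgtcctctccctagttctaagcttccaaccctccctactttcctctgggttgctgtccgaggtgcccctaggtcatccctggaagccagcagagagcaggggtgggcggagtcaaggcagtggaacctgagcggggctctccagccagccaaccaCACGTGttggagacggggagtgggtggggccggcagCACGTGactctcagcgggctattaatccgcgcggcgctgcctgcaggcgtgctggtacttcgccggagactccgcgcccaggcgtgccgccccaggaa
The motif reads the same on both strands, and CAGCTG, the core that MyoD prefers, is a case of it. Among the 311 genes higher in replicate 2, 217 had 282 windows in the table, of which 26.2% held CAGCTG and 72.7% held any CANNTG. Over the 9957 windows of the 7758 matched genes tested, the shares were 15.3% and 63.1%, and over the 32851 windows kept 16.3% and 72.3%. The windows of a single chromosome were left out of each of these sets. Ckm held CAGCTG at the far end of its window and Myog, Actc1 and Actn2 held other forms of CANNTG. A match is a description of the letters and not a site of binding. Cdkn1c, Mgp and Dcn are named without a sequence.

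The extracellular matrix list had 14 of 43 genes called higher in replicate 2, beside 2.72% of all genes. The median was 0.35 in replicate 2, 0.03 in replicate 1 and 0.23 over both. Col6a1, a collagen VI chain of the muscle basement zone, measured 7.92 and 7.98 with DMSO, 8.19 in replicate 1 and 10.09 in replicate 2. Nid2, a basement membrane nidogen, measured 7.99 and 7.95, then 8.17, and 9.96 in replicate 2. Col3a1, a fibrillar collagen chain, differed by 1.84 in replicate 2 and by 0.18 in replicate 1. Col6a2 and Col8a2, not detected with DMSO, were at least 2.14-fold and 1.75-fold higher in replicate 2. Among insulin-like growth factor genes 5 of 16 were called higher in replicate 2: the growth factors Igf1 and Igf2, their binding proteins Igfbp3 and Igfbp5, and H19, the noncoding RNA next to Igf2. Igf2, which myoblasts secrete as they differentiate, measured 10.85 and 10.85 with DMSO, 10.84 in replicate 1 and 11.99 in replicate 2. A second Igfbp3 probe differed by 0.18 in replicate 2, against 1.18 for the probe used.

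Other groups held some genes called higher in replicate 2, beside 2.72% of all genes, and none called in replicate 1. They were 5 of 21 among the Id, Notch, Twist and Snail genes, of which Zeb1 and Hes6 differed by 0.76 and 0.75. Heyl and Dll1, not detected with DMSO, were at least 1.17-fold and 1.38-fold higher. Among TGF-beta and BMP genes they were 4 of 24, Smad3, Tgfb3, Tgfbi and the myostatin antagonist Fst. The 4 of 22 interferon genes were Gbp2, Oasl2, Tapbp and Igtp, the last not detected on any growth-medium array, and the 4 of 22 inflammatory genes were Ccl9, Tnfaip3, Cp and C3. Of 36 hypoxia and glycolysis genes 1 was called higher, a share near that of all genes. It was Pdk1, the kinase that switches off pyruvate dehydrogenase (6.91 and 6.82 with DMSO, 6.82 in replicate 1 and 8.61 in replicate 2). Asb2, a ubiquitin ligase subunit of muscle, measured 4.45 and 4.67, then 4.65, and 7.02 in replicate 2, at least 3.06-fold higher. Second probes of Tapbp and Oasl2 differed by -0.01 and 0.17 in replicate 2, against 0.77 and 1.43 for the probes used.

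**Figure D2:**
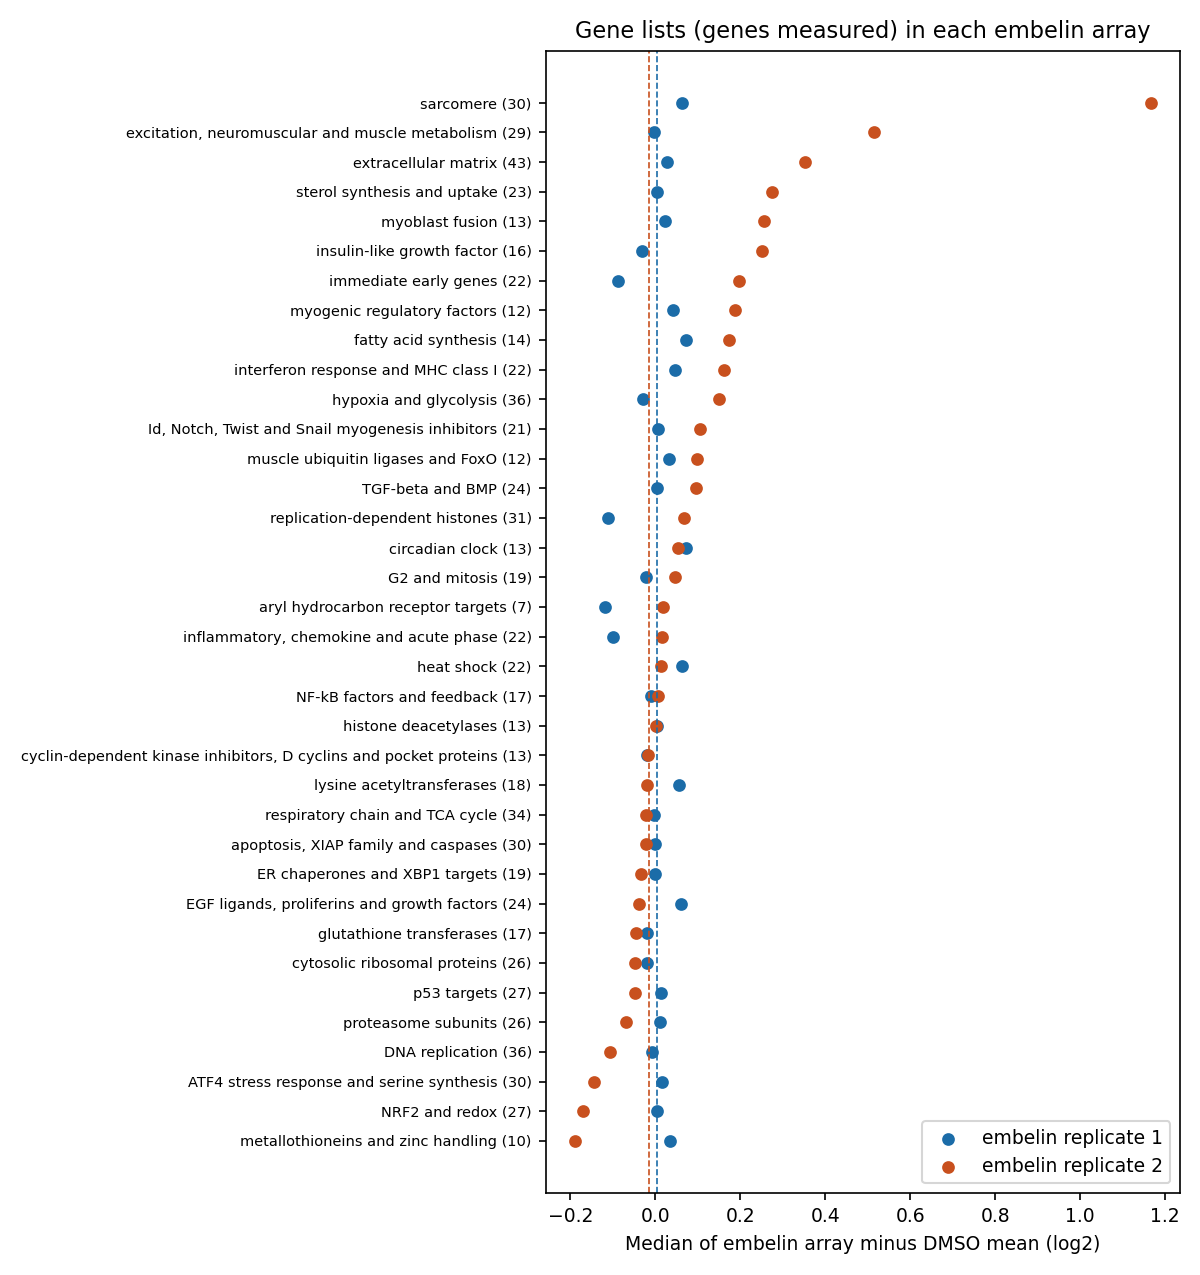
Median over the measured genes of each list of the embelin array minus the DMSO mean, in log2 units (x axis), for 36 gene lists with the number of genes measured in brackets (y axis), a point for each embelin array and dashed lines at the medians of all genes tested. In embelin replicate 2 the sarcomere list lies at 1.17 and the matrix list at 0.35, and in replicate 1 they lie at 0.06 and 0.03.

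Fewer genes were called lower than higher in embelin replicate 2, 27 against 311, although more lay below both DMSO arrays than above. Of 36 DNA replication genes, 27 lay below both DMSO arrays in replicate 2, beside 39.8% of all genes. The median of the list was -0.11 in replicate 2 and -0.01 in replicate 1. Of 19 genes of G2 and mitosis, 5 lay below both DMSO arrays in replicate 2 and the median was 0.05. The median of 27 NRF2 and redox genes was -0.17 in replicate 2 and 0.00 in replicate 1.

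Among the genes singled out as lower in replicate 2 than in replicate 1, Lrrc39, a leucine-rich repeat protein of muscle, passed the test in replicate 2 alone. It measured 5.78 and 5.57 with DMSO, 5.94 in replicate 1 and 4.96 in replicate 2 (adjusted p = 0.0276 by limma), where its probe was not detected, and its other probes differed by -0.02 and 0.10. It lost its call in 6 alternatives, among them the fit without DMSO replicate 1. Of the other genes of this kind none passed. Osbpl8, Utp15, Cracd, Mlf1 and Eea1 differed from DMSO by -0.72 to -0.46 in replicate 2 and by 0.37 to 0.52 in replicate 1, and Gvin1, Fam122a, Ranbp2 and Prim1 were not detected in replicate 2. Prim1, the DNA primase subunit, measured 5.71 and 6.02 with DMSO, 6.12 in replicate 1 and 5.21 in replicate 2.

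The genes of embelin's reported targets showed no call. Kat2b measured 5.22 and 5.58 with DMSO and 5.56 and 5.71 with embelin, a difference of 0.23 ± 0.14 (SE, adjusted p = 0.915 by limma), and a second probe of the gene differed by 0.00 and -0.07. Embelin replicate 1 lay between the DMSO arrays at Kat2b. On DMSO replicate 1 the Kat2b probes, at 5.22 and 5.30, lay below the Parm1 probe at 5.44, which was not detected there. Kat2b signals were thus near background, which limits what the absence of a call shows. Kat2a, its close paralogue, measured 8.76 and 8.77 with DMSO and 8.94 and 8.55 with embelin, on either side of DMSO (-0.02 ± 0.12 SE, adjusted p = 0.998). Ep300, which encodes p300, measured 9.49 and 9.33 with DMSO and 9.28 and 9.37 with embelin (-0.09 ± 0.13 SE, adjusted p = 0.991). Crebbp, the relative of p300, went with the replicate number rather than with treatment, at 5.86 and 6.99 with DMSO and 5.47 and 6.75 with embelin, and its second probe did likewise. Of 18 measured acetyltransferase genes, 0 were called over both arrays, beside 0.0% of all genes. The count is thus nothing particular to this list. Its median difference was 0.055 in replicate 1 and -0.02 in replicate 2. The 4 probes for Xiap were not detected on any of the 12 arrays.

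Cdkn1a, which encodes the cyclin-dependent kinase inhibitor p21, measured 12.35 and 12.49 with DMSO and 12.43 and 12.75 with embelin (0.17 ± 0.12 SE, adjusted p = 0.939 by limma). Other Cdkn1a probes differed by 0.00 and -0.50 in replicate 1 and by -0.06 and 0.04 in replicate 2. Hmox1, the haem oxygenase that oxidants and electrophiles induce, measured 11.63 and 11.36 with DMSO and 11.49 and 11.19 with embelin (-0.15 ± 0.18 SE, adjusted p = 0.988). Of 30 apoptosis genes, 0 were called over both arrays, beside 0.0% of all genes, so this count is nothing particular to the list. Their differences ran from -0.38 to 0.24 in replicate 1 and from -0.30 to 0.79 in replicate 2.

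How far each embelin array lay along the way to differentiation was read with arrays not shared between the measures. From growth medium to 24 h the DMSO arrays had 2989 genes called higher (26.1%) and 3611 lower (31.5%). The step was the level on DMSO replicate 1 at 24 h minus that on DMSO replicate 1 in growth medium, and each embelin array was set against DMSO replicate 2. Over 2212 genes with a step of at least 1 log2 unit, the slope of the embelin difference on the step was 0.0029 for replicate 1 and 0.239 for replicate 2. With replicate numbers swapped it was 0.007 and 0.269, and on the step to 48 h it was 0.0069 and 0.186. In embelin replicate 2, 93.7% of 1236 rising genes were higher than DMSO and 87.2% of 976 falling genes were lower, and in replicate 1 the shares were 50.5% and 49.1%.

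**Figure D3:**
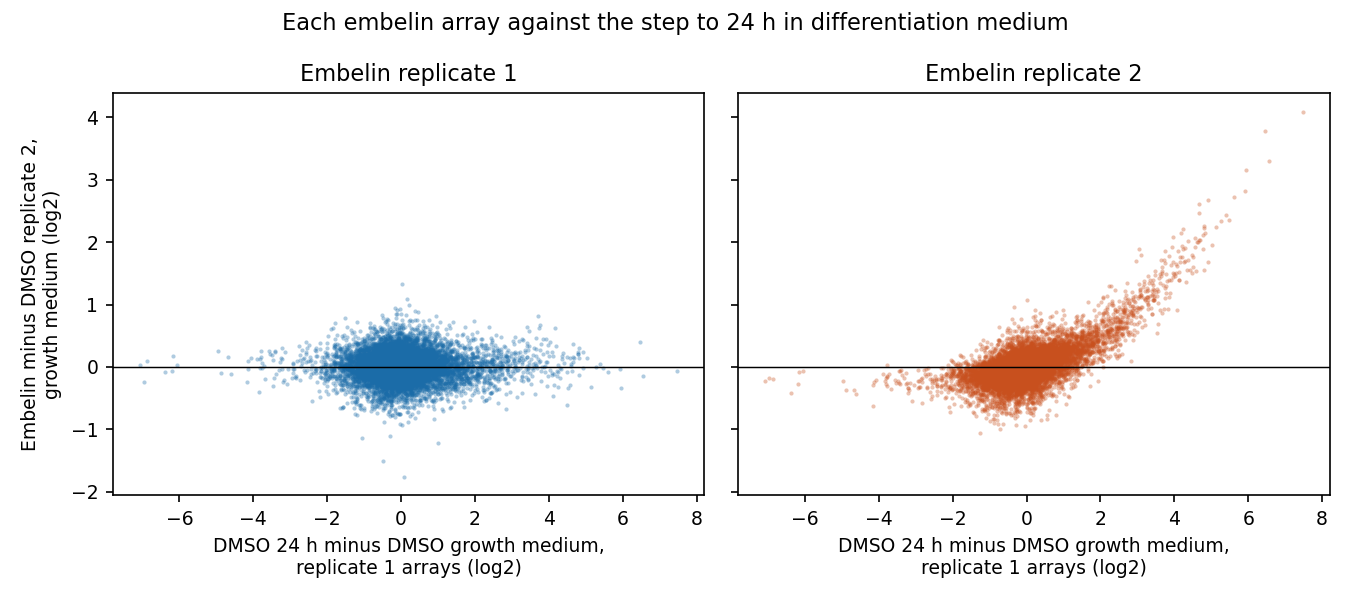
Embelin minus DMSO replicate 2 in growth medium (y axis, log2) against DMSO at 24 h minus DMSO in growth medium on the replicate 1 arrays (x axis, log2), with a point for each of 11452 genes and a panel for each embelin array. Replicate 1 stays level along the step with a slope of 0.0029, and in replicate 2 the genes rise with the step, all 56 genes of a step of at least 4 units lying above 0.

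On the linear scale, the part of the step that embelin replicate 2 carried was nearly the same for genes of small and large steps. Its median was 13.4% of the step for 796 genes that rose by 1 to 2 log2 units, 13.2% for 279 genes at 2 to 3, 13.4% for 105 at 3 to 4 and 12.4% for 56 at 4 or more. Falling genes gave 16.4% for 839 genes, 16.1% for 92 and 15.6% for 45. In embelin replicate 1 the medians lay between -3.09% and 0.548%. Single genes varied more: Parm1 carried 9.02% of its step in replicate 2, Cdkn1c 10.6%, Mgp 14.1%, Dcn 14%, Ckm 13.8%, Myog 12.1%, Actc1 16.9% and Itga11 20.1%. Col3a1 and Pdk1 carried 40.1% and 30.6%.

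**Figure D4:**
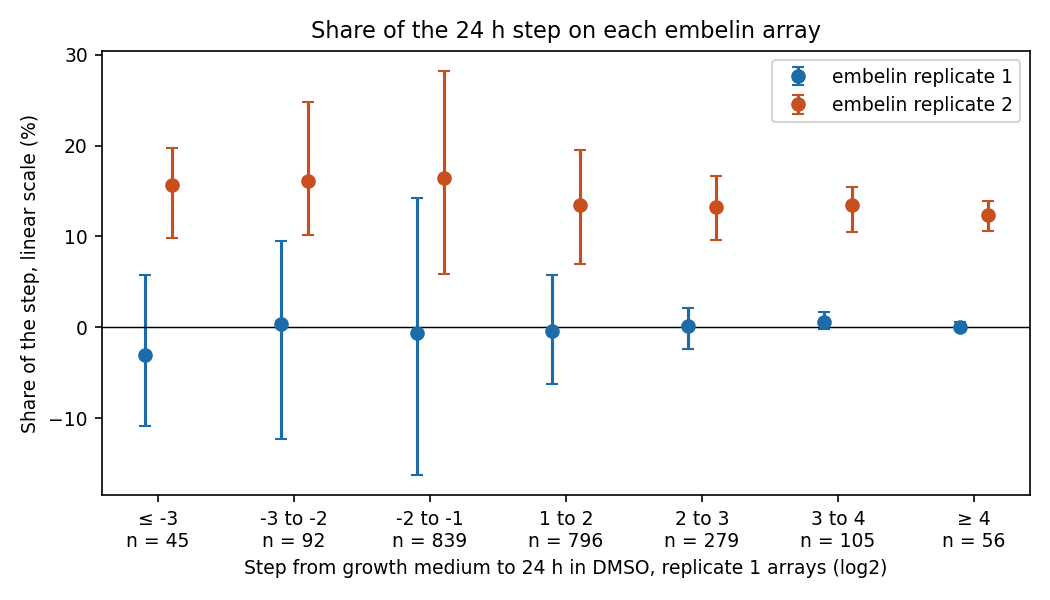
Share of the linear step from growth medium to 24 h that each embelin array carried (y axis, %), by the size of the step in log2 units (x axis, with the number of genes), as the median with bars from the lower to the upper quartile over genes. Replicate 2 lies between 12.4% and 16.4% in every class, and replicate 1 between -3.09% and 0.548%.

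A weighted sum of a DMSO growth-medium array and a differentiation-medium array was then set against each embelin array, over 1148 genes. For embelin replicate 2 the closest sum gave the DMSO 24 h array a weight of 13%, with a root mean square difference of 0.195 log2 units against 0.736 at a weight of 0. The embelin 24 h array came as close, at a weight of 14% and 0.196, and in the swapped arrangement the order turned (0.214 for DMSO and 0.207 for embelin), so the profiles at 24 h could not be told apart. The 48 h arrays fitted less closely, with 0.437 for DMSO and 0.396 for embelin. For embelin replicate 1 the closest weight of the DMSO 24 h array was 0.0%. Against that weighted sum, and over all 11452 genes, embelin replicate 2 differed with an SD of 0.182 and 0 genes by 1 log2 unit or more, where against DMSO replicate 2 it had an SD of 0.311, 169 genes higher and 1 lower. In the swapped arrangement the SD was 0.193 against the sum and 0.322 against DMSO, and 2 genes stayed at least 1 unit lower than the sum. The DMSO arrays differed from each other with an SD of 0.190 over genes. The weight was fitted to embelin replicate 2 itself, over genes that are among those compared, whereas no fit entered the difference between the DMSO arrays. A low SD against the sum is thus partly built in. What lay behind the closeness of embelin replicate 2 to the sum was not tested.

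The effect of embelin in growth medium differed from its effect at 48 h in differentiation medium. At 48 h, 4544 genes (39.7%) were called, 2264 higher (19.8%) and 2280 lower (19.9%), and the difference between the effects was called for 2736 genes (23.9%) by limma's interaction contrast. The growth-medium effect was the higher for 1435 genes (12.5%) and the lower for 1301 (11.4%). With embelin replicate 2 left out of growth medium 2725 were called, and with replicate 1 left out 2732. Of the genes called and at least 1 log2 unit higher at 48 h, 455, the median difference in growth medium was -0.01 in replicate 1 and 0.06 in replicate 2. Of the 550 that were as much lower at 48 h, the medians were 0.01 and 0.06. The interaction was called for 418 and 540 of them. Those genes were chosen on the same 48 h effect that the interaction contains, so these counts add no separate support. The growth-medium differences and the 48 h differences themselves share no array.

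**Figure D5:**
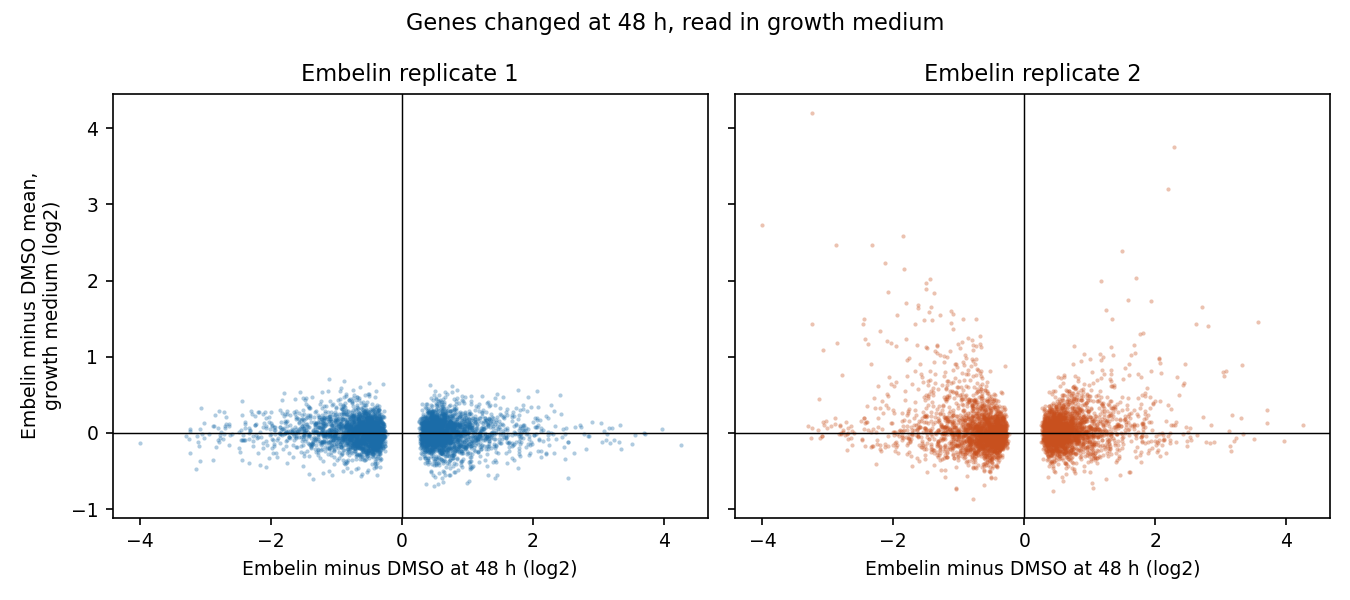
Embelin array minus the DMSO mean in growth medium (y axis, log2) against embelin minus DMSO at 48 h in differentiation medium (x axis, log2), with a point for each gene called at 48 h and a panel for each embelin array. Replicate 1 lies flat along the axis, and replicate 2 has genes far above 0 on both sides, with Cdkn1c at 4.20.

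The gene groups called at 48 h were compared with their calls in growth medium. Over all genes, 19.8% were called higher and 19.9% lower at 48 h, and 2.72% higher in embelin replicate 2 in growth medium. Of 19 genes of G2 and mitosis, 18 were lower at 48 h and 0 were called in either embelin array in growth medium. Of 36 hypoxia and glycolysis genes, 32 were higher and 3 lower at 48 h, and in growth medium 0 were called in replicate 1 and 1 higher in replicate 2. The sarcomere list, with 30 genes measured, had 14 lower and 1 higher at 48 h, beside 21 higher in embelin replicate 2 in growth medium. Hmox1, at 11.49 and 11.19 with embelin in growth medium, had a growth-medium effect minus 48 h effect of -1.60 log2 units (adjusted p = 0.00141 by limma). At 24 h, 6 genes (0.0524%) were called, and the effect in growth medium differed from that at 24 h for 0 genes (0.0%) with both embelin arrays, for 1 gene without embelin replicate 2 and for 256 without embelin replicate 1.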

How the data were processed

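The 12 arrays, 2 in each of 6 groups of C2C12 cells, were of the Illumina type MouseWG-6 V2.0 R3. The label protocol names an Agilent kit and Cy3, whereas the file headers name the Illumina array. Bead intensities were deposited without normalization by the authors, read in GenomeStudio (version 1.8.0 per the file headers, 2010.2 per the submitters' processing notes). The deposited detection fraction runs to 1 for bright probes and was taken as 1 minus the detection p, per the file headers and the values. The authors' deposited log2 values, centred per array and probe, lay within 0.006 of centred log2 intensities for 100.0% of values, and served as an alternative.

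Intensities were background-corrected and quantile-normalized with neqc (offset 16) in limma 3.58.1 (R 4.3.3). A probe was kept where both arrays of at least 1 group had a detection p under 0.01 (16981 of 45281 probes). Of 3829 genes with several probes, the probe of the highest mean stood for the gene, which gave 11452 genes. A probe's name followed the RefSeq table by symbol (27760 probes) or synonym (7992), and 9529 kept the file's name. Group means were fitted over all 12 arrays (6 residual degrees of freedom, prior 4.51), with Benjamini-Hochberg adjustment over all genes and calls at an adjusted p under 0.05. An embelin array alone was tested by leaving out the other, with its spread taken from the other groups. A lower bound of a fold used, for undetected probes, each array's lowest detected signal or the probe's own, whichever was higher. Precision is limited by how many arrays there are. The fit was tested on simulated data.

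The members and lists were chosen with earlier results of these data known. Named genes were called genes of the largest changes, of which there were none, the 10 genes that most separated the embelin arrays each way, 10 fixed genes and up to 6 of each list by size of change. Replicate numbers were not taken to pair the arrays, since not every pair of groups passed 0.1. Deviations of same-numbered DMSO and embelin arrays in growth medium correlated at 0.094 over genes, and those among the 4 differentiation-medium groups at 0.127 to 0.243. Alternatives covered scaling, filter, prior, probe choice, array weights, replicate block and left-out arrays. The array weights were equal within each group, 0.55 for each embelin array in growth medium, so they could not set replicate 2 apart from replicate 1.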

Additional observations from a re-analysis of the deposited data

Results flagged for a closer look

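Results are listed here because the effect of embelin in growth medium differed from its effect at 48 h in differentiation medium by limma's interaction contrast with Benjamini-Hochberg adjustment. The contrast was called for 2736 genes. The growth-medium effect minus the 48 h effect, on the log2 scale, was 5.36 for Cdkn1c, 5.30 for Parm1, 3.57 for Ckm and 3.21 for Itga11. With embelin replicate 1 as the only embelin array in growth medium, these were 3.28, 3.87, 2.36 and 1.99, and with replicate 2 7.44, 6.74, 4.79 and 4.43, all 8 called. Among the fixed genes the difference was 1.51 for Mef2c, 0.95 for Myod1, -0.67 for Ep300 and -1.60 for Hmox1. With replicate 1 alone they were 1.13, 0.69, -0.71 and -1.44, and with replicate 2 alone 1.89, 1.20, -0.62 and -1.75, where Ep300 missed the threshold (adjusted p = 0.0504 by limma). Genes singled out after their values were seen gave 2.26 for Klhl30, 1.06 for Svil, -0.78 for Dnajc11, -0.91 for Usp25 and -0.99 for Il6st. Usp25 missed the threshold with replicate 2 alone (-0.82, adjusted p = 0.0577 by limma), and Dnajc11 was not detected on either growth-medium embelin array.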

How the results depend on the processing

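With both embelin arrays, 0 genes were called higher and 0 lower under every alternative tried other than leaving out an embelin array. With 1 array left out, the calls ran from 0 to 311 higher and from 0 to 27 lower, and the difference from the 24 h effect from 0 to 256 genes, the highest values without embelin replicate 1. The difference from the 24 h effect was called for 4 genes with a trended and robust prior, and that from the 48 h effect for 1881 to 2958 over all alternatives. In embelin replicate 1 alone, the 2 lower genes became 0 with median scaling, without the detection filter and with probes averaged, 1 with quantile normalization without background correction and with probes detected on all 4 growth-medium arrays, and 8 with the trended prior. Leaving out either DMSO array gave 0. In embelin replicate 2 alone, 205 genes were higher with probes detected on all 4 arrays and 401 with the trended prior. The 27 lower genes became 17 without the filter, 13 with probes detected on all 4 arrays, 13 with the trended prior, and 7 to 13 with a DMSO array left out, where 214 and 225 genes were higher. With the replicate block, 0 genes were called over both arrays, 2 lower in replicate 1 alone, 335 higher and 21 lower in replicate 2 alone, and 0 and 2860 against 24 h and 48 h. Lrrc39 lost its call in replicate 2 alone in 6 alternatives. Of 424 values of named genes over both arrays, 28 turned sign with no call on either side. Numbers of called genes per list moved markedly, or to or from 0, in 79 of 484 combinations of list and setting for replicate 2 alone. Over both arrays they moved in 25 of 660, all with an embelin array left out. The settings for each embelin array alone were chosen after seeing the data, and the cause of these changes was not tested. Signals near background limit genes such as Dcn, Prelp and Ckm to lower bounds.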
